A study of Rattus norvegicus with 6 samples.

Results

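Signalling by interferons and by many interleukins ends at the interferon regulatory factors (IRFs) and the signal transducers and activators of transcription (STATs). The 9 genes followed here were Irf1, Irf3, Irf5, Irf7, Irf8, Irf9, Stat2, Stat4 and Stat6, in the spinal cord of Lewis rats with ENMO, an experimental form of neuromyelitis optica. They were found by their symbol in the arrays' own gene names, except for Irf8, which was found through the gene number in the probe's description. Each gene had 1 probe in 1 spot, so the 9 genes, of 16057 with a symbol on the arrays, stand on 9 of the 41012 probes that are not controls.

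RNA from formalin-fixed, paraffin-embedded tissue was amplified and hybridised to 6 one-colour Agilent whole rat genome arrays, 1 array per group, and no group had a replicate. On day 0, ENMO rats were given T cells specific for myelin basic protein, and NMO-IgG followed on day 4. EAEcoI rats received the same T cells and subcuvia, a commercial human IgG, as control IgG, and EAEcoP rats the same T cells and PBS. T cells of this kind alone cause experimental autoimmune encephalomyelitis (EAE). NMO-IgG is IgG from patients with neuromyelitis optica and contains antibodies to the astrocyte water channel aquaporin 4. The NMO-IgG only and control IgG only rats received antibody without T cells, and the healthy controls received neither. All rats were 7 to 8 weeks old, and the treated rats were killed 24 hours after antibody or PBS. Each array carried a pool of 5 rats, or of 3 rats for the healthy control, so that differences between animals are not seen. In pooled tissue, fewer cells of a type and less RNA per cell cannot be told apart.

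The signal is given as normalized signal intensity (NSI), the background-corrected brightness of a probe after quantile normalization over the 6 arrays. A signal is called well above background where the scanner software marked it so, and levels of different probes are not compared with each other. The share of such spots was 44.5% to 60.2% on the arrays with T cells and 35.4% to 41.7% on those without. Slide 1 held control IgG only, EAEcoP and ENMO, and slide 2 held healthy control, NMO-IgG only and EAEcoI. Of the 263 probes printed in 10 spots, those well above background had an SD of 0.37 (log2) between spots, so that a pair of arrays has to differ by over 2.02-fold to pass the 95% limit of this spread. With all spots counted, dim ones included, the SD was 0.54 and the limit 2.84-fold. Both are spreads between spots of the same array, so variation between pools, amplifications and hybridisations is not in them. The limit of 2.02-fold is the one used below, also for dim probes. As a check of the tissue, 13 to 17 of the 17 probes of oligodendrocyte genes were well above background on each array, but the 4 probes of Aqp4 were so on at most 2 arrays. Rpl13a, a gene often taken as a reference, read 45870 in ENMO, 4341 in EAEcoI, 5117 in EAEcoP, against 30330 in healthy control, 28960 in control IgG only and 25370 in NMO-IgG only, which is a log2 difference of 3.28 between ENMO and EAE.

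IRF3, IRF5 and IRF7 are switched on by phosphorylation when receptors sense nucleic acids or microbial products, and then drive interferon and cytokine genes. Type I interferon acts through ISGF3, a complex with STAT2 and IRF9 that binds the interferon-stimulated response element (ISRE), and IRF7 is itself a gene that this complex induces. Interferon-gamma acts through the gamma-activated sequence (GAS), and IRF1 is the transcription factor best known to be induced in this way. STAT4 carries the signal of interleukin-12 in T cells, STAT6 that of interleukin-4 and interleukin-13, and IRF8 is needed for the development of monocytes, dendritic cells and microglia.

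Sequences of the probes are shown for some of the genes only, and not for Irf5. The probes of Irf1, Irf3 and Irf7, read from the arrays' own annotation, were:
Irf1: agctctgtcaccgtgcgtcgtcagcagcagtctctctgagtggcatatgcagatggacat
Irf3: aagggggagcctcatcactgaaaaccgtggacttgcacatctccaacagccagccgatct
Irf7: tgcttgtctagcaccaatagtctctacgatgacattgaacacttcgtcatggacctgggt
The Irf7 probe lies on the minus strand at chr1:201456889-201456948 and the Irf3 probe on the plus strand at chr1:95474896-95474955, in the rat build of the array annotation, whose version the files do not name. The 60 bases of the Irf1 probe are spread over 235 bases at chr10:39224461-39224695, plus strand, so that the probe crosses an exon junction. The probe of Stat2 is likewise spread over 257 bases, at chr7:1579523-1579779, and the Irf5 probe lies at chr4:56418353-56418412, both on the plus strand. The remaining probes lie at chr15:33744668-33744727 (Irf9, plus), chr9:46514898-46514957 (Stat4, minus), chr7:67639581-67639640 (Stat6, plus) and chr19:51116691-51116750 (Irf8, plus).

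The promoters of Irf7 and Irf1 are shown because these genes are textbook targets of the ISRE and the GAS, and because their signals were the ones that moved most with T cells in the EAE arrays. RefSeq sequences of the build GRCr8 were matched for all 9 genes, each from 250 bases before to 50 bases after the start of the transcript. Capitals mark motif matches on either strand.
Irf7: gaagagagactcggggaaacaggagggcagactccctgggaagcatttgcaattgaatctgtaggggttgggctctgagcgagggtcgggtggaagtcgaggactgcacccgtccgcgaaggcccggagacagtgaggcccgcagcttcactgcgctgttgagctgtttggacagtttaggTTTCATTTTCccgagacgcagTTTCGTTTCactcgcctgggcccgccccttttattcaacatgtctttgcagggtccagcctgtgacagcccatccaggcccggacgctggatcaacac
Irf1: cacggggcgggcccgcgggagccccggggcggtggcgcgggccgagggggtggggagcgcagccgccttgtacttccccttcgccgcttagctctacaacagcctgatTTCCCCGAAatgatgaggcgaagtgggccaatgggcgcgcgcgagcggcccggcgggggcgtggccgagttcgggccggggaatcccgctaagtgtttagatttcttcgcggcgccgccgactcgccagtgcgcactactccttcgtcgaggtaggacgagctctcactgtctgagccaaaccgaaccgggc
The Irf7 sequence is chr1:205799974-205800273, minus strand, and the Irf1 sequence chr10:38417685-38417984, plus strand. In Irf7 the first capitals, TTTCATTTTC at -69 to -60 from the start, match the ISRE core GAAANNGAAA on the opposite strand, which 3.92% of the 33469 rat promoters in the same table hold. The second, TTTCGTTTC at -48 to -40, match GAAANGAAA, a pair of the same half-sites with 1 base between, which 3.50% of promoters hold. This form was searched after the Irf7 promoter had been read. In Irf1 the capitals, TTCCCCGAA at -142 to -134, match the GAS letters TTCNNNGAA, which 8.87% of promoters hold. Among the other 7 genes the ISRE core was found in none, GAS in Irf8 (TTCTCGGAA and TTCAGAGAA) and in Irf9 (TTCTAGGAA), and GAAANGAAA in Irf3 (GAAAGGAAA).

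Irf7, the inducible activator of type I interferon genes, was the only one of the genes whose signal was higher on all 3 arrays with T cells than on all 3 without. It read 9.75 in ENMO, 9.58 in EAEcoI and 17.8 in EAEcoP. Without T cells it read 2.59 in healthy control, 4.23 in control IgG only and 4.84 in NMO-IgG only. The groups did not overlap, and Irf7 was well above background on the 3 arrays with T cells and on none of the others, a pattern that 3.59% of the 27301 probes tested shared. All T over all non-T was at least 2.60-fold, counted against the detection limit of each array. Within slide 1 the limit was at least 3.05-fold, and within slide 2 at least 2.05-fold. Among the arrays with T cells, ENMO and EAEcoI differed by 1.02-fold and EAEcoP was 1.83-fold above ENMO, within the spread of repeat spots. The signal lies near the floor of the arrays: with the normexp background correction the groups overlapped and the ratio was at least 1.12-fold, and without background correction at least 1.21-fold.

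Of the 8 probes that were tested, which are those well above background on at least 1 array, 1 was higher on every T cell array, against 11.3% of all probes tested. None was lower on every T cell array, against 6.80% of all probes. With limma and Benjamini-Hochberg adjustment over the 27301 probes, 0 probes passed an adjusted p of 0.05 (0%), 3120 had an unadjusted p under 0.05, and of the genes here only Irf7 was among those. Its log2 difference was 1.66 (SE 0.60, unadjusted p = 0.0195, adjusted p = 0.336, limma). The exact permutation test of 3 against 3 arrays gave p = 0.1 (two-sided), the smallest it can give. The arrays of different antibody stand in as replicates in these tests. Irf7 passed the filter for testing only through the arrays with T cells, where it was higher. Its count and its p-values are therefore not independent of that filter.

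**Figure D1:**
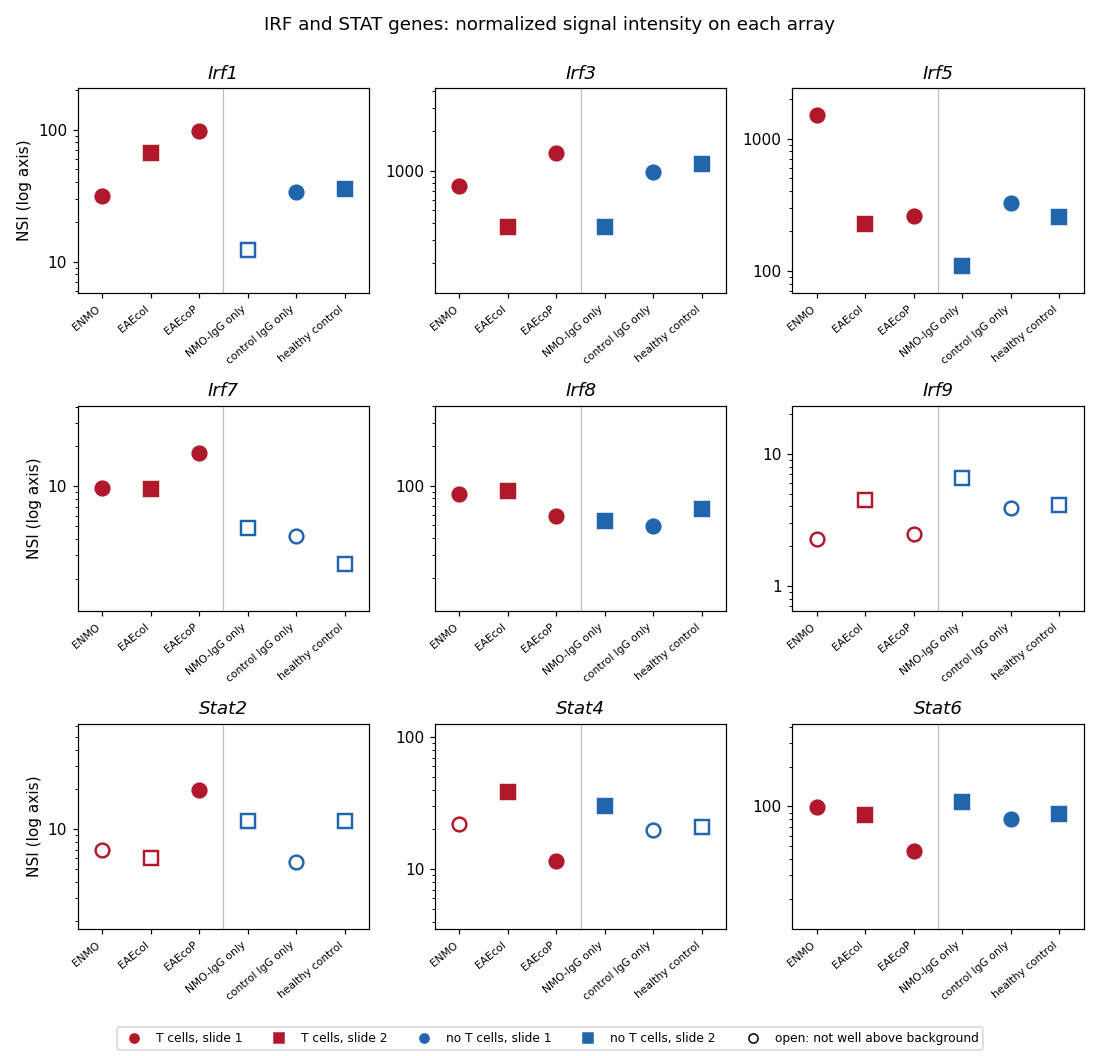
NSI of the 9 genes on each of the 6 arrays, on log axes that all span the same ratio. Red points are arrays with T cells and blue points arrays without, circles are slide 1 and squares slide 2, and open points are not well above background. Irf7 is filled on the red points only, Irf5 is highest in ENMO at 1502, and Irf9 is open on every array.

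Irf1, the transcription factor induced by interferon-gamma, was highest in both EAE groups. It read 97.7 in EAEcoP and 66.3 in EAEcoI, and 31.6 in ENMO. Without T cells it read 35.3 in healthy control, 33.5 in control IgG only and 12.3 in NMO-IgG only, where it was not well above background. Both EAE arrays thus lay above all other arrays, while ENMO lay between the arrays without T cells. EAEcoI was 1.88-fold above healthy control, the next in order, which is within the spread of repeat spots. EAE over all non-T was 3.03-fold and ENMO over all non-T 1.17-fold. All T over all non-T was 2.41-fold, but 1.27-fold with the normexp correction and 1.49-fold without background correction. The log2 difference between all T and all non-T was 1.27 (SE 0.64, adjusted p = 0.473, limma). Between arrays of the same antibody, or of none, all 3 pairs had the higher signal with T cells. EAEcoP was 2.77-fold above healthy control, ENMO at least 2.58-fold above NMO-IgG only, and EAEcoI 1.98-fold above control IgG only, which is within the spread of repeat spots.

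Other genes around IRF1 and IRF7 were read from fixed lists. Of 29 tested probes of ISGF3 targets, the genes that type I interferon induces, 8 were higher and 1 lower on every T cell array. Of all probes tested, 11.3% were higher and 6.80% lower. The median log2 difference of the ISGF3 targets was 0.19, against 0.01 over all probes tested. Lgals3bp, which encodes a secreted galectin ligand, read 279 in ENMO, 50.5 in EAEcoI and 406 in EAEcoP, against 47.3 in healthy control, 37.1 in control IgG only and 32.4 in NMO-IgG only. Oas1a, an antiviral enzyme that senses double-stranded RNA, read 881, 342 and 355 with T cells and 170.2, 113 and 163 without, in the same order, which is kept for such sets of values below.

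Of 26 tested probes of targets of interferon-gamma and IRF1, 6 were higher and 2 lower on every T cell array. The shares of all probes tested were 11.3% and 6.80%, and the median log2 difference of these targets was 1.16. Psmb9, a subunit of the immunoproteasome, read 1615 in ENMO, 595 in EAEcoI and 401 in EAEcoP, against 51.6, 39.9 and 38.4 on the arrays without T cells. Psmb10, another subunit, overlapped: EAEcoI read 32.3, beside 1045 in ENMO and 2072 in EAEcoP, and the arrays without T cells read 31.9, 128 and 54.5. In ENMO, 3 of the 26 probes were over 2-fold above both EAE arrays and 2 over 2-fold below, which is near the shares of all probes tested, 6.61% and 9.17%.

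Upstream of the factors, Ifng, which encodes interferon-gamma, read 17.1 in ENMO, 16.5 in EAEcoI and 20.8 in EAEcoP, against 10.5 in healthy control, 13.8 in control IgG only and 10.96 in NMO-IgG only. These 6 values did not overlap between the groups, but the highest and the lowest differed by less than the limit of repeat spots. Of all probes tested, 11.3% were likewise higher on every T cell array. Of the cytokine ligands well above background on all arrays, Il6 and Il10 differed more between all T and all non-T than Ifng. Both went the other way, with log2 differences of -1.40 in Il6 and -0.66 in Il10, against 0.63 in Ifng. In Il6 and Il10 the arrays with and without T cells overlapped. The lists of the pathway are set against this share of 11.3%. Higher on every T cell array were 3 of 11 tested probes of cytokine ligands and 2 of 12 of cytokine receptors. So were 1 of 4 of Janus kinases, 1 of 14 of activators of IRFs and 2 of 21 of inhibitors. Of partner transcription factors, 0 of 19 were. One of the higher inhibitors was Ptpn6, a phosphatase of blood cells, with 390.1, 235 and 215 with T cells and 135, 99.8 and 110.5 without. Among the other IRF and STAT genes of the list 1 of 9 probes was, a probe of Stat5b that read 6.90 in ENMO, 26.5 in EAEcoI and 82.0 in EAEcoP, against 1.98 to 2.27 without T cells. It was well above background in EAEcoI and EAEcoP only, and not in ENMO. A probe of Irf2 was not well above background on any array. In the same lists, 1 probe each of cytokine ligands, receptors, activators, inhibitors and partner factors was lower on every T cell array. None of the probes of Janus kinases or of other IRF and STAT genes was, against 6.80% of all probes tested.

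Some markers of monocytes and macrophages were higher with T cells as well. Of 20 tested probes of monocyte and macrophage markers, 9 were higher and 0 lower on every T cell array. Of all probes tested, 11.3% were higher and 6.80% lower. Of the 9, those of Lyz2, Itgam, Aif1, Cd14 and Csf1r were well above background only on arrays with T cells. They passed the filter for testing only through the group where they were higher. The other probes of the 9 were well above background on every array. The summed NSI of the monocyte and macrophage markers was 6687 to 19330 with T cells and 3094 to 4789 without. Without 1 bright probe of Tyrobp, a signalling adaptor of myeloid cells, the sums were 3303 to 5289 and 1742 to 2741. For T cell markers the count was 2 of 8, with sums of 1152 to 2648 and 780.2 to 1077, which overlapped without the probe of Cd3d, at 228.5 to 385 and 159.6 to 269. For microglia markers it was 0 of 7, with sums of 289 to 609 and 558 to 673, and for neutrophil markers 2 of 12. It was 2 of 13 for astrocytes, 1 of 11 for neurons and 1 of 2 for skeletal muscle, and 0 for oligodendrocytes (of 17 tested probes), endothelial cells (of 10) and B cells, dendritic cells, Schwann cells and erythroid cells (of 3 each). Of 13 tested probes of reference genes, 5 were higher on every T cell array, among them Gapdh at 219, 232 and 658 with T cells and 174, 83.4 and 155 without. The part of these cells, and of the higher share of detected spots, in the values of Irf1 and Irf7 was not tested.

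**Figure D2:**
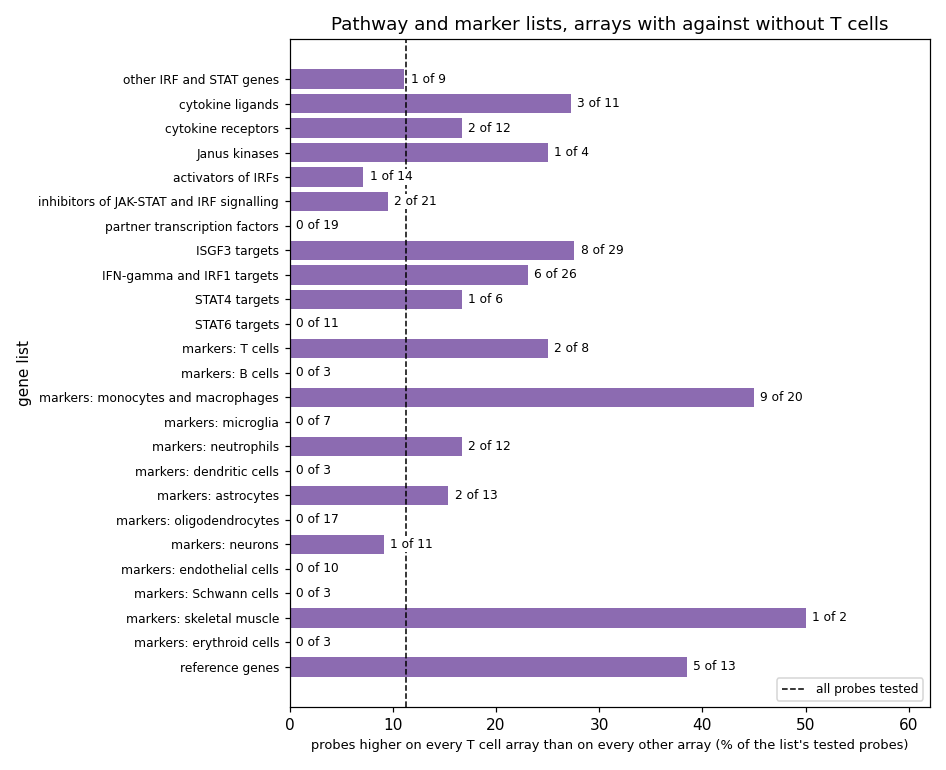
Share of the tested probes of each fixed gene list that were higher on every T cell array than on every other array, in percent, with the counts beside the bars. The dashed line is the share of all probes tested, 11.3%, and monocyte and macrophage markers lie above it with 9 of 20. Each share, that of all probes included, can hold probes that passed the filter only through the arrays with T cells.

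Irf5, which drives inflammatory cytokine genes downstream of Toll-like receptors, was highest in ENMO. It read 1502 in ENMO, 225 in EAEcoI and 259 in EAEcoP. Without T cells it read 254 in healthy control, 324 in control IgG only and 109.5 in NMO-IgG only, and it was well above background on every array. ENMO was 6.66-fold above EAEcoI and 5.80-fold above EAEcoP, which lay on the same slide, and 4.64-fold above control IgG only, the next in order. The 4 arrays from control IgG only down to EAEcoI differed from their neighbours by 1.02-fold to 1.25-fold, within the spread of repeat spots. ENMO over EAE was 6.20-fold, and between 3.77-fold and 7.22-fold under the alternatives tried. All T over all non-T was 2.89-fold, but 1.06-fold without ENMO, and the log2 difference was 1.095 (SE 0.76, adjusted p = 0.582, limma).

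Irf5 was the only 1 of the 8 tested probes over 2-fold above both EAE arrays, against 6.61% of all probes tested. Irf1 was the only one over 2-fold below both, against 9.17% of all probes. ENMO was 2.10-fold below EAEcoI and 3.09-fold below EAEcoP in Irf1. With the normexp correction Irf1 in ENMO was 0.702 times EAE, and without background correction 0.613 times, in place of 0.386. With the local trend removed it was 0.413 times EAE, but no longer over 2-fold below both arrays.

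The genes with the profile most like that of Irf5, among 6618 probes with a symbol and well above background on all 6 arrays, were Cfd, Arhgap9 and Scube1, at distances of 0.60, 1.32 and 1.35 (log2, over the 6 arrays after the mean of each probe was taken off). Cfd, complement factor D, read 2721 in ENMO, 302 in EAEcoI, 263 in EAEcoP, against 321 in healthy control, 441 in control IgG only and 144 in NMO-IgG only. The order of the arrays differed from that of Irf5 only in the places of EAEcoI, EAEcoP and healthy control.

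Of the macrophage markers, 3 of 20 tested probes were over 2-fold above both EAE arrays in ENMO and 0 over 2-fold below. The shares of all probes tested were 6.61% and 9.17%. Fcgr1, the high-affinity receptor for IgG, read 2321 in ENMO, 140.0 in EAEcoI and 575 in EAEcoP, against 90.0, 84.1 and 73.6 without T cells. The summed signal of the macrophage list was 19330 in ENMO, 7937 in EAEcoI and 6687 in EAEcoP, of which the bright Tyrobp probe made up 14040, 4633 and 2516. Without it the sums were 5289, 3303 and 4171. The median probe of the list was 0.39 (log2) lower in ENMO than in EAE, against 0.13 lower over all probes tested. For T cell markers the sums were 2648, 1152 and 1257, and 299.5, 228.5 and 385 without Cd3d. For B cell markers they were 238, 68.3 and 65.3, and 42.3, 44.99 and 25.1 without Ms4a1, so that without these probes ENMO was not above both EAE arrays in either list. The median probe was 0.18 (log2) higher in ENMO than in EAE among T cell markers and 0.32 higher among B cell markers. The part of these cells in the Irf5 signal was not tested.

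**Figure D3:**
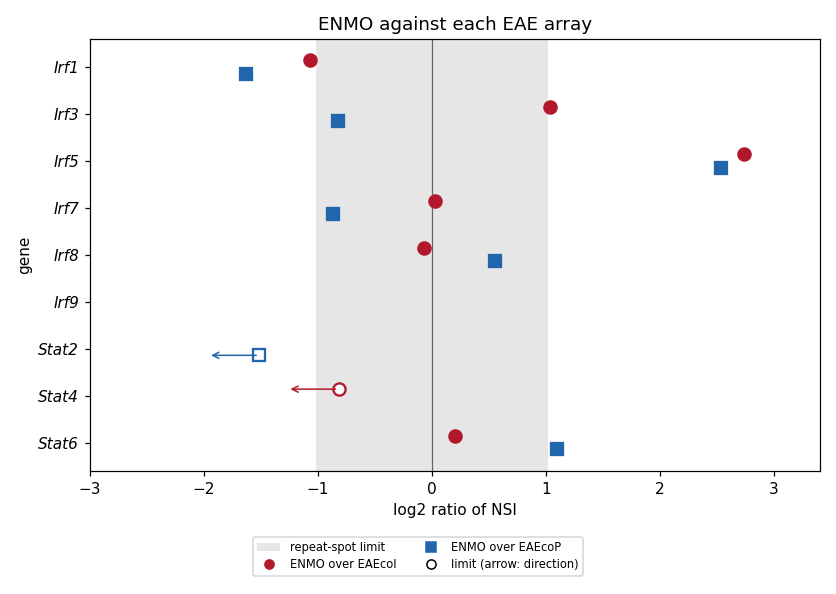
Log2 ratio of NSI of ENMO over EAEcoI (circles) and over EAEcoP (squares) for each gene, with the grey band at the limit of repeat spots (2.02-fold). Open points with arrows are limits where an array was not well above background, and genes with no point had both arrays below background or no limit over 1. Irf5 lies to the right of the band for both arrays and Irf1 to the left for both.

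Irf3, the factor present in most cells before infection and activated by TBK1, overlapped between the arrays with and without T cells. It read 761 in ENMO, 371 in EAEcoI and 1348 in EAEcoP, against 1125 in healthy control, 972 in control IgG only and 372 in NMO-IgG only. All T over all non-T was 1.004-fold, with a log2 difference of -0.03 (SE 0.64, adjusted p = 0.988, limma), which leaves room for a change of over 2-fold in either direction. With scaling to the 75th percentile the ratio was 0.605, and without EAEcoP 0.688. In order of level, EAEcoP, healthy control, control IgG only and ENMO each differed from the next by less than the limit of repeat spots, and so did NMO-IgG only and EAEcoI at the lower end. The step between ENMO and NMO-IgG only was 2.05-fold. The most similar profiles were those of Atp6ap1, Sytl1 and Tlk2, at distances of 0.46, 0.58 and 0.59.

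Without T cells, 3 of the 8 tested genes were lowest on the NMO-IgG only array. Irf1, Irf3 and Irf5 were over 2-fold lower in NMO-IgG only than in both other arrays without T cells, against 5.83% of all probes tested. Irf3 was 2.61-fold and 3.02-fold lower, Irf5 2.95-fold and 2.32-fold lower, and Irf1 at least 2.73-fold and 2.88-fold lower, since its signal in NMO-IgG only was not well above background. None of the 8 was over 2-fold higher in NMO-IgG only than in both, against 4.81% of all probes. Only Irf3 kept this difference under the normexp correction, without background correction and after the local trend across each array had been removed. Control IgG only and healthy control differed by 1.05-fold in Irf1, 1.16-fold in Irf3 and 1.28-fold in Irf5, all within the spread of repeat spots.

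For Irf3 and Irf5, NMO-IgG against control IgG had the opposite direction with T cells. ENMO over EAEcoI was 2.05-fold in Irf3 and 6.66-fold in Irf5, whereas NMO-IgG only over control IgG only was 0.383-fold and 0.339-fold. In Irf3 this rests on the low EAEcoI array, which was 0.275 times EAEcoP, and ENMO over EAEcoP was 0.565-fold. Of all probes tested, 5.06% were over 2-fold higher with T cells and over 2-fold lower without, and 2 of the 8 genes were. The NMO-IgG array lay on slide 1 with T cells and on slide 2 without, and in Irf5 the arrays of slide 1 ran from 259 to 1502 and those of slide 2 from 109.5 to 254. Antibody, T cells and slide cannot be told apart in this pattern, and with 1 array in each group it was not tested. In Irf1 the antibody went with a lower signal in both settings, by 2.10-fold with T cells and by at least 2.73-fold without.

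**Figure D4:**
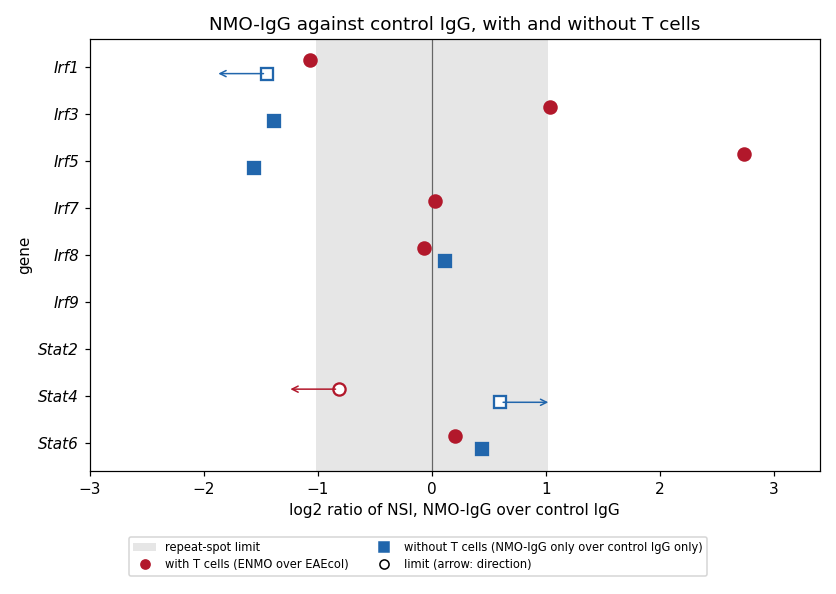
Log2 ratio of NSI of NMO-IgG over control IgG for each gene, with T cells (circles) and without (squares), and the limit of repeat spots as a grey band. Open points with arrows are limits. Irf3 and Irf5 lie on opposite sides of the band with and without T cells, and Irf1 on the left in both.

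Irf8, the factor of the monocyte lineage, varied little. It read 86.6 in ENMO, 90.9 in EAEcoI and 59.1 in EAEcoP, against 66.6 in healthy control, 49.7 in control IgG only and 53.7 in NMO-IgG only. The highest and the lowest array differed by 1.83-fold, within the spread of repeat spots, and healthy control lay above EAEcoP. The log2 difference between all T and all non-T was 0.46 (SE 0.47, adjusted p = 0.700, limma). The probe lies in row 3 of the array, near its edge, and the probe of Stat2 also lies near an edge, in column 4. Mtus1, Dcaf4 and Ttyh2 had the most similar profiles, at distances of 0.24 to 0.28.

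Stat6, which carries the signals of interleukin-4 and interleukin-13, was well above background on every array and lowest in EAEcoP. It read 98.8 in ENMO, 85.6 in EAEcoI and 46.1 in EAEcoP, against 88.4 in healthy control, 80.2 in control IgG only and 109 in NMO-IgG only. Neighbours in this order differed by 1.03-fold to 1.74-fold, within the spread of repeat spots, and ENMO was 2.14-fold above EAEcoP. The log2 difference between all T and all non-T was -0.33 (SE 0.49, adjusted p = 0.800, limma). The nearest profiles were those of Emc3, Socs3 and Dvl3, at distances of 0.11, 0.18 and 0.18. Socs3, the feedback inhibitor of Janus kinases, read 311, 268 and 147 with T cells and 321, 270.2 and 366 without. Of 11 tested probes of STAT6 targets, 0 were higher and 1 lower on every T cell array, against 11.3% and 6.80% of all probes. Tgm2, a transglutaminase of alternatively activated macrophages, read 667 in ENMO, 54.3 in EAEcoI and 870.3 in EAEcoP, against 71.3, 51.1 and 66.2 without T cells, so that only EAEcoI overlapped.

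Stat4, the factor of interleukin-12 signalling in T cells, was well above background in EAEcoI at 38.7, in NMO-IgG only at 29.9 and in EAEcoP at 11.5. It was not in healthy control at 20.8, in control IgG only at 19.7 and in ENMO at 21.9. EAEcoI was 3.35-fold above EAEcoP, and no neighbours in the order differed by more than the limit of repeat spots. All T over all non-T was 1.03-fold in mean NSI, whereas the difference of mean log2 values was -0.11 (SE 0.61, adjusted p = 0.954, limma). A difference by T cells was not detectable at this precision. Of 6 tested probes of STAT4 targets, 1 was higher and 1 lower on every T cell array, against 11.3% and 6.80% of all probes. Both were probes of Gzmb, the protease granzyme B of cytotoxic cells. The higher one read 152, 174 and 142 with T cells and 110.2, 90.3 and 67.0 without. The lower one read 98.9, 81.4 and 61.0 with T cells and 127.5, 103.2 and 108.5 without. Another probe of Gzmb overlapped between the groups.

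Stat2 and Irf9, both parts of ISGF3, were close to or below background. Stat2 was well above background in EAEcoP alone, at 19.7, and read 6.92 in ENMO and 6.05 in EAEcoI. Without T cells it read 11.5 in healthy control, 5.61 in control IgG only and 11.5 in NMO-IgG only. EAEcoP was at least 2.85-fold above ENMO and at least 3.27-fold above EAEcoI, but at least 1.72-fold above healthy control. EAEcoP was also the array with the largest share of spots well above background, 60.2%. The log2 difference between all T and all non-T was 0.05 (SE 0.67, adjusted p = 0.981, limma).

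Irf9 was not well above background on any array, with 2.28 to 4.51 on the arrays with T cells and 3.91 to 6.58 on those without, and was not tested. Nothing can be said from these arrays on its level, or on that of Stat2 outside EAEcoP, beyond this limit of detection.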

How the data were processed

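Intensities of 6 one-colour arrays were used. Per the file headers, the authors deposited for each array the table of 45018 spots of Agilent Feature Extraction 10.1.1.1, with the intensity after subtraction of background and spatial trends, and marks for outlier spots and for spots well above background. The authors also deposited a table of 1 intensity per target. In targets with 1 spot it equals the corrected intensity within 1% in all 194062 values, so it is not normalized between arrays.

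Spots marked as outliers were left out, log2 values were averaged over the spots of a probe, and the 41012 probes were quantile-normalized, as the study's methods name, to give NSI. Ratios are those of mean NSI between groups. Where a group had no array well above background, a limit on mean log2 values is given, against the higher of the probe's own signal and the lowest signal well above background on the array. The 27301 probes measured on all 6 arrays, and well above background on 1 or more, were tested with limma 3.58.1 in R 4.3.3 (lmFit and eBayes with trend, 3 arrays with T cells against 3 without). The fit was tested on simulated data. Python 3.11.15 with numpy 2.4.6 and pandas 2.3.3 was used elsewhere.

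The alternatives were scaling to the 75th percentile, no normalization between arrays, normexp with an offset of 50, no background correction, outlier spots kept, removal of the local trend (5 rows and columns), filters on dim probes, other fold thresholds, the mean of log2 values, the deposited values per target, leaving out arrays, and in limma the antibody or the slide as a block. The 9 genes and the 25 gene lists (328 genes, from general knowledge) were chosen with earlier results of these data known. The text names all 9 genes, up to 3 genes per list with the largest difference between all T and all non-T among probes well above background on all arrays, and the 3 nearest profiles. Irf2, Stat5b, Aqp4, Tyrobp, Cd3d, Ms4a1, Lyz2, Itgam, Aif1, Cd14, Csf1r and the motif GAAANGAAA were added after their values were seen. All arrays were used, and their number limits the precision. One gene is not reported here.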

Additional observations from a re-analysis of the deposited data

Results flagged for a closer look

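In Irf3 and Irf5 the difference between NMO-IgG and control IgG had opposite signs with and without T cells. The log2 ratio with T cells minus that without was 2.42 in Irf3 (1.04 and -1.38) and 4.30 in Irf5 (2.74 and -1.56). The difference was not tested, since each group had 1 array, and it cannot be told apart from the slide. In Irf3 the sign with T cells rests on the low EAEcoI array, since against EAEcoP the log2 ratio of ENMO was -0.82. Both signs held in both genes under the 6 other ways of processing the spots. In Irf3 the ratio without T cells then lay between -1.88 and -1.18, but that with T cells was 0.47 with no normalization between arrays, 0.87 after removal of the local trend and 0.97 with the normexp correction, all under the limit of repeat spots. In Irf5 the ratio without T cells was -0.12 after removal of the local trend, -0.37 with the normexp correction and -0.46 without background correction, all under that limit too.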

How the results depend on the processing

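Of the 91 counts under an alternative, 70 stayed within 1.5 times the value given above, and 133 of 169 folds of single genes moved by less than 1 SD of the difference between a pair of repeat spots (1.43-fold). Member probes higher on every T cell array, 1 above, were 3 with no normalization between arrays (Irf5, Irf7 and Irf8) and 3 with the local trend removed (Irf1, Irf5 and Irf7), but 0 with the normexp correction and 0 among probes well above background on all 6 arrays, a filter that leaves Irf7 out. Leaving out 1 array gave 1 to 2. Probes over 2-fold above both EAE arrays were 2 when either EAE array was left out (Stat6 was added without EAEcoI, Irf3 without EAEcoP). Those over 2-fold below both were 0 with the normexp correction, 0 without background correction and 1 to 2 with an array left out (Stat2 was added without EAEcoI). With the local trend removed this count stayed at 1, but Stat2 took the place of Irf1. Among probes well above background on all 6 arrays this count was 0, a filter that leaves Irf1 out. In NMO-IgG only, the number of lower probes was 1 (Irf3) with the normexp correction, 1 without background correction and 1 with the local trend removed, and the number of higher probes 0 to 1 with an array left out (Stat2, without healthy control). The probes called by limma, 0 above, were 423 with no normalization between arrays, 34 with the antibody as a block and 0 to 308 with an array left out (308 without ENMO, 3 without EAEcoI). None of the 9 genes passed with no normalization, with either block or without ENMO. With no normalization, the median log2 difference of all probes was 0.73 in place of 0.01 for T cells, and -0.85 in place of -0.13 for ENMO against EAE, so folds on that scale carry this shift. The cause of these changes was not tested. The antibody block pairs the arrays with and without T cells that share an antibody or had none, and no group had a replicate to pair by number. The marker sums without their brightest probe were chosen after seeing the data. Signals near background (Irf7, Irf9, Stat2, Stat4) limit what can be read.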
